A study of Homo sapiens with 20 samples.

Results

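MDA-MB-231 cells, an established human breast cancer line with a mesenchymal-like character, were compared after laser heating at 50 °C and at 46 °C. The members were all 4 libraries labelled laser 50 °C and all 4 labelled laser 46 °C, so 8 of the 20 libraries of the series. Both groups carried biomimetic nanoparticles, held on the cells for 4 h at 0.1 mg/ml, and both received 10 min of light from an 808 nm continuous-wave laser. The temperature of the laser, 50 or 46 °C, was the difference between them. Cells with the same nanoparticles and no light (nanoparticles alone, 4 libraries) gave levels beside the heated ones. Each sample was RNA pooled from 2 wells of 30000 seeded cells, and the labels do not say that replicates were separate cultures. The p-values below rest on the spread among these samples, part or all of which may be technical. No sample of the series held cells under the laser with no particles, and the effect of light cannot be told apart from that of heat. The time from light to lysis is not given in the sources used here.

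Cells meet heat that unfolds proteins by releasing the transcription factor HSF1, which binds heat shock elements and switches on genes of the HSP70, HSP40 and HSP90 chaperone families. Stress and growth signals also switch on immediate-early genes such as FOS and EGR1 within minutes, partly through serum response factor at CArG boxes. Many immediate-early mRNAs are short-lived, so their amounts follow recent transcription. Mitochondria carry their own small genome, whose mRNAs are transcribed, processed and tailed inside the organelle.

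The promoter sequences of 3 genes that were lower at 50 °C are shown. They were picked because they hold the elements of these pathways, which most genes called lower did not. They are from the RefSeq promoter table (GRCh38.p14, plus strand, written 5′ to 3′), and capitals mark the motif. HSPA6 (chr1:161524290-161524539) and EGR1 (chr5:138465229-138465478) are given as the 250 bases before the gene's start in that table, which for EGR1 lies upstream of the GENCODE start given below. DNAJA1 (chr9:33025268-33025296) is given as the site with 8 bases on each side, and its match lies just after the gene's start.
HSPA6: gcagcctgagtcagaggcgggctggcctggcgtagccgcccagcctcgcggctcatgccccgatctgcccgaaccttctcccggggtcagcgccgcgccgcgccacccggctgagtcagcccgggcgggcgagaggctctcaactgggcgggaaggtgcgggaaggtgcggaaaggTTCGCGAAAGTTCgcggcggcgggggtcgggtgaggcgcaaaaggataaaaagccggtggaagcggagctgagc
DNAJA1: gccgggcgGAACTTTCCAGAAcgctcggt
EGR1: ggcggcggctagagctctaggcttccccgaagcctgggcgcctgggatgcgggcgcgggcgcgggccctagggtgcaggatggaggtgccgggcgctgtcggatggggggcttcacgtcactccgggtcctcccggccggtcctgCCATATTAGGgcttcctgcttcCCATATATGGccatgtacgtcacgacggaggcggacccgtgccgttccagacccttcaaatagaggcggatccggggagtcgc
The heat shock element was searched as 3 alternating GAA and TTC units with 2 bases of any kind between units, and the CArG box as 2 C, 6 of A or T and 2 G, which covers both strands. The HSPA6 match starts 74 bases before the gene's start, and the EGR1 window held 2 CArG boxes. A heat shock element of this strict form was in 172 of all 35116 windows (0.49%) and in 29 of 9440 windows of tested genes (0.307%). It was in 3 of 144 windows of genes called lower and in 1 of 122 windows of genes called higher. The other gene called lower with a match was HNRNPA2B1, an RNA-binding protein, and the one called higher was GAS5. HSPA1A, HSPA1B, DNAJB1, HSPH1, HSP90AA1 and IER5, also called lower, had no match of this form or no window. CArG boxes were in 1.29% of all windows and 1.11% of windows of tested genes. They were in 3 of 144 windows of genes called lower and in 3 of 122 of genes called higher. FOS, FOSB, JUN and JUNB, also called lower, had no CArG box in the window searched or no window. The AP-1 site (TGA, C or G, TCA) was in 3.09% of windows of tested genes, 4.17% for genes called lower and 2.46% for genes called higher. A match describes letters in these windows and is not evidence of binding.

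The libraries held 3884834 to 4382962 counts at 50 °C and 2401180 to 3245482 counts at 46 °C, so every library at 50 °C was deeper, and the part of depth in the results was not tested. Replicates correlated at 0.892 to 0.924 in log2 CPM (counts scaled to library size), and none were duplicates. Of 14 basal and mesenchymal markers, TP63, KRT5 and KRT14 were at 0 in all 8 libraries, and the list summed to 3890 to 4160 CPM at 50 °C and 3030 to 4070 CPM at 46 °C. VIM and LAMB3 of this list were called higher at 50 °C. VIM averaged 2023 CPM at 50 °C and 1672 CPM at 46 °C and lost its call without 50 °C replicate 1 or 2 or 46 °C replicate 1, 2 or 3 (adjusted p up to 0.157). LAMB3 averaged 187 CPM at 50 °C and 140 CPM at 46 °C and lost its call without any 1 of the 8 libraries (adjusted p 0.0934 to 0.141). Of 12 luminal markers 5 were at 0 in all 8 libraries (CDH1, PGR, AGR2, FOXA1 and TFF3), and the list summed to 151 to 237 CPM at 50 °C and 137 to 222 CPM at 46 °C, with no call among 5 tested members. Of 11 macrophage markers 8 were at 0 in all 8 libraries, and the list summed to 3.37 to 14.4 CPM at 50 °C and 6.86 to 16.5 CPM at 46 °C. Of 11 lymphocyte markers 7 were at 0 in all 8 libraries, among them CD4 and PTPRC, and the list summed to 117 to 191 CPM at 50 °C and 113 to 194 CPM at 46 °C. In bulk RNA, fewer cells of a type and less RNA per cell cannot be told apart.

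Of 12149 tested genes, 169 were higher at 50 °C than at 46 °C (1.39%) and 172 were lower (1.42%) at an adjusted p under 0.05, the threshold for every call below. The model held the 5 group means of the series and a term for replicates 1 and 2 against 3 and 4, a division found in earlier results of these data. The differences reached 2-fold for 48 of the higher and 36 of the lower genes. The values of the 4 and 4 libraries did not overlap for 449 genes in the higher direction (3.7%) and for 414 in the lower direction (3.41%), among them 134 of the higher and 131 of the lower calls. All 169 and 172 calls had the same direction within both replicate pairs, where the pair of replicates 1 and 2 alone called 126 higher and 110 lower and the pair of 3 and 4 alone called 40 higher and 35 lower. A test of whether the step differed between the pairs called 0 genes with edgeR, 0 with DESeq2 and 0 with limma-voom, and 528 genes had an unadjusted p under 0.05 in edgeR. Without the pair term 71 were higher and 74 lower. Without 50 °C replicate 1 or 3 the higher calls numbered 105 or 110. With scaling to library totals alone, which moved the median of all genes by -0.18 on the log2 scale, 68 were higher and 725 lower. Changes below are relative to the TMM scaling, under which the median of all genes was -0.0035.

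**Figure D1:**
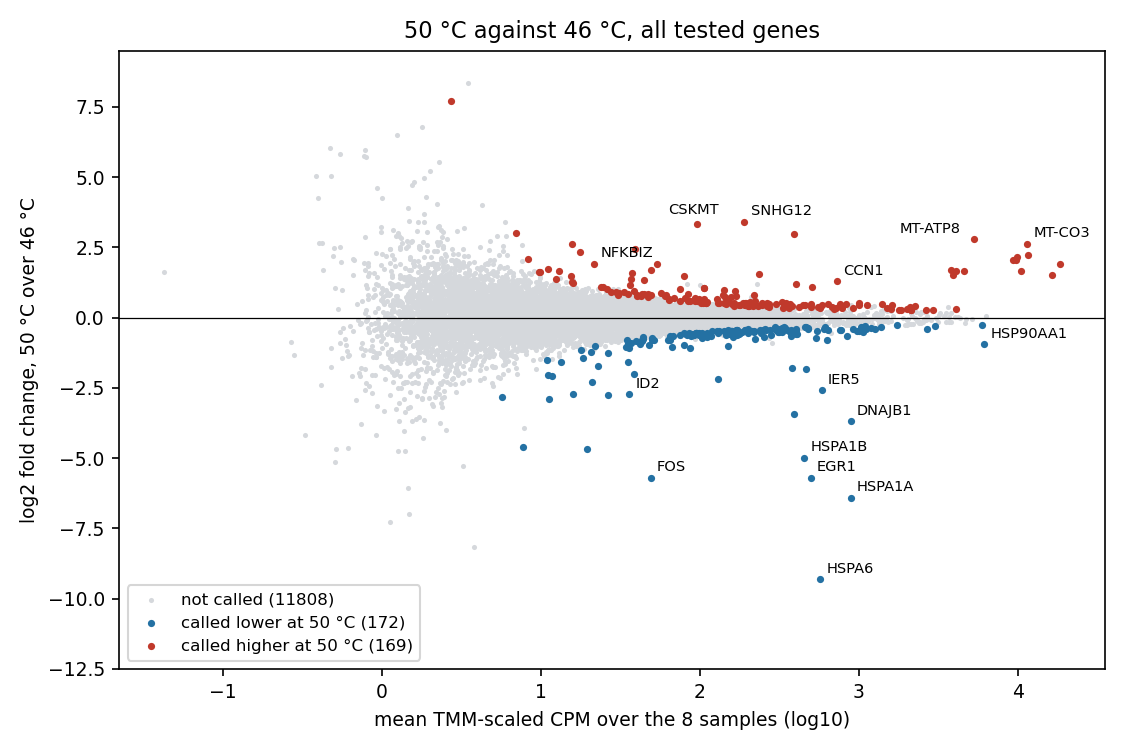
Each point is 1 of the 12149 tested genes, with its mean TMM-scaled CPM over the 8 libraries (log10) across and its log2 fold change of 50 °C over 46 °C up. The 172 lower genes include chaperone and early-response genes with falls of over 2.5 log2 units, and the mitochondrially encoded MT-CO3 and MT-ATP8 stand at the upper right.

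Several inducible chaperones were far lower at 50 °C. HSPA6, an inducible HSP70 that is nearly silent in unstressed cells (GRCh38 chr1:161524540-161526910), had 0, 0, 4.28 and 3.09 CPM at 50 °C, against 871, 1180, 818 and 1700 CPM at 46 °C. DNAJB1, the inducible HSP40 partner of HSP70 and feedback regulator of HSF1 (chr19:14514770-14529770), had 107, 132, 136 and 139 CPM at 50 °C, against 1390, 1840, 1300 and 2040 CPM at 46 °C. The groups were far apart for both genes, with no library of one group near those of the other. The log2 fold changes were -9.31 (SE 0.602, adjusted p = 2.47e-06) for HSPA6, which rests on 28 counts in all at 50 °C, and -3.68 (SE 0.128, adjusted p = 4.42e-32) for DNAJB1.

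HSPA1A and HSPA1B, near-identical inducible HSP70 genes whose reads the counting may split between them, summed to 49.5 ± 15.8 CPM at 50 °C and 2640 ± 486 CPM at 46 °C (SD, n = 4 each). HSPA1A alone had 13.9 to 33.7 CPM at 50 °C, against 1540 to 2230 CPM at 46 °C. HSPH1, the HSP110 exchange factor, averaged 202 ± 25.3 CPM at 50 °C and 723 ± 133 CPM at 46 °C, a log2 fold change of -1.84 (95% interval -2.09 to -1.58, adjusted p = 1.95e-17). These 4 genes were the calls among 12 tested HSP70 and HSP110 genes, of which 4 fell, 0 rose and 8 did not pass. The median was -0.32, and of all tested genes 1.42% fell and 1.39% rose.

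The fall was shallower in the HSP90 family. HSP90AA1, the inducible cytosolic HSP90, had 4400, 4420, 3750 and 4330 CPM at 50 °C, against 7510, 8710, 7060 and 8970 CPM at 46 °C. The groups did not overlap, and the log2 fold change was -0.93 (SE 0.0702, adjusted p = 7.16e-19). HSP90AB1, its constitutive relative, averaged 2670 ± 187 CPM at 50 °C and 3320 ± 341 CPM at 46 °C, a log2 fold change of -0.31 that was called (adjusted p = 0.00642) but not without 50 °C replicate 3 or 46 °C replicate 4 (adjusted p = 0.082 and 0.0564). BAG3, a co-chaperone that directs HSP70 clients to autophagy, averaged 44.1 CPM at 50 °C and 89.9 CPM at 46 °C, with overlap between 63.7 and 62.5 CPM.

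Of 17 HSP90 and co-chaperone genes these 3 fell and 0 rose (all tested genes: 1.42% and 1.39%), with a median of -0.1. With library totals 5 fell. Of 16 cytosolic HSP40 genes 3 fell and 0 rose, with a median of -0.11: DNAJB1, DNAJA1 and DNAJB4. DNAJA1, whose heat shock element is printed above, averaged 222 ± 6.51 CPM at 50 °C and 341 ± 44.3 CPM at 46 °C, with a log2 fold change of -0.62 (adjusted p = 9.7e-05). DNAJB4 was a weak call, at 9.92 ± 3.51 CPM at 50 °C and 26.9 ± 6.13 CPM at 46 °C (adjusted p = 0.033), and was called only when 46 °C replicate 1 was the library left out, with an adjusted p of 0.0509 to 0.171 in the other 7 omissions.

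The mitochondrial chaperonin pair also fell. HSPD1 (HSP60) had 584 to 698 CPM at 50 °C, against 910 to 1140 CPM at 46 °C, with no overlap and a log2 fold change of -0.66 (SE 0.0925, adjusted p = 2.52e-07). Its partner HSPE1 (HSP10), which shares a promoter region with HSPD1, averaged 404 ± 113 CPM at 50 °C and 667 ± 189 CPM at 46 °C, a log2 fold change of -0.73 (adjusted p = 2.87e-07). The HSPE1 ranges met, from 281 to 526 CPM at 50 °C and from 518 to 914 CPM at 46 °C, since replicates 3 and 4 were lower than 1 and 2 in both groups, and HSPE1 was not called without the pair term (adjusted p = 0.157). Among 12 chaperonin genes 4 fell and 0 rose (all tested genes: 1.42% and 1.39%), with a median of -0.21. Without the pair term 1 fell, with the GC offset described below 2 fell, and with library totals 8 fell.

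In the list of small heat shock proteins and HSF1-linked stress genes 4 of 16 fell and 0 rose, with a median of -0.3. The shares over all tested genes were 1.42% and 1.39%. With library totals 8 of the list fell, with the GC offset 6 fell and within each replicate pair 2 fell. The largest fall there was IER5, an HSF1 target that itself promotes HSF1 activity, at 160, 168, 164 and 180 CPM at 50 °C, against 914, 1110, 782 and 1190 CPM at 46 °C. It had the smallest adjusted p of these genes (4.89e-33), with a log2 fold change of -2.57 (95% interval -2.8 to -2.35). RRAD, a small GTPase gene, averaged 10.4 ± 5.15 CPM at 50 °C and 35.2 ± 14.9 CPM at 46 °C (adjusted p = 0.00192). The other members called were CACYBP and HSPB1, at 258 and 414 CPM at 50 °C and 362 and 546 CPM at 46 °C. HSPB1 lost its call without 50 °C replicate 1 or 2 or 46 °C replicate 4, with an adjusted p up to 0.141.

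**Figure D2:**
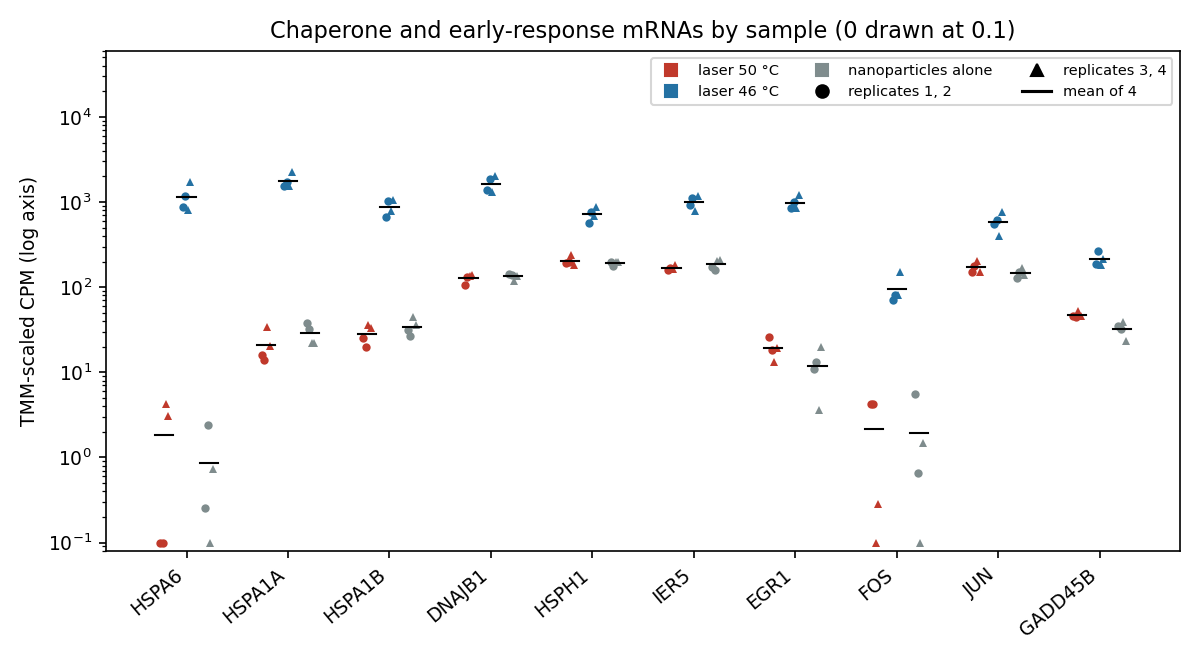
TMM-scaled CPM (log axis, 0 drawn at 0.1) of 10 chaperone and early-response genes in each library of laser 50 °C, laser 46 °C and nanoparticles alone, with a bar at each mean of 4; circles are replicates 1 and 2, triangles 3 and 4. The 4 libraries at 46 °C lie above all others for every gene drawn, with HSPA6 at 818 to 1700 CPM against at most 4.28 CPM at 50 °C.

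At 50 °C most of these mRNAs stood close to nanoparticles alone. Against nanoparticles alone 150 genes were higher at 50 °C (1.23%) and 180 lower (1.48%), while at 46 °C 157 were higher (1.29%) and 106 lower (0.872%); both comparisons share the same 4 libraries without light. DNAJB1 averaged 129 ± 14.9 CPM at 50 °C, 1650 ± 355 CPM at 46 °C and 134 ± 9.77 CPM with nanoparticles alone. Against nanoparticles alone its log2 fold change was -0.06 at 50 °C (adjusted p = 0.895) and 3.62 at 46 °C (adjusted p = 1.41e-31). HSP90AA1 averaged 4540 ± 239 CPM with nanoparticles alone, and its log2 fold changes against them were -0.10 at 50 °C (adjusted p = 0.58) and 0.83 at 46 °C (adjusted p = 2.61e-16). In the HSP70 and HSP110 list 0 of 12 members passed at 50 °C against nanoparticles alone and 4 rose at 46 °C. In the list of small heat shock proteins and HSF1-linked genes 1 rose and 1 fell at 50 °C, while 6 rose and 0 fell at 46 °C. Over all genes, the mean with nanoparticles alone lay nearer to 50 °C than to 46 °C for 100 of the 172 lower genes (58.1%), for 81 of the 169 higher genes (47.9%) and for 50.1% of all tested genes.

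EGR1, FOS, FOSB, JUN and JUNB, immediate-early transcription factors, were also lower at 50 °C. EGR1, a zinc finger factor induced by serum and stress (chr5:138465490-138469315), had 25.8, 18.4, 13.3 and 19.1 CPM at 50 °C, against 846, 994, 859 and 1220 CPM at 46 °C. FOS, the AP-1 subunit, had 4.21, 4.22, 0 and 0.281 CPM at 50 °C, against 71.4, 80.6, 81.1 and 151 CPM at 46 °C. No values overlapped for either gene, and FOS was nearly absent from replicates 3 and 4 at 50 °C. The log2 fold changes were -5.70 (SE 0.389, adjusted p = 2.87e-07) for EGR1 and -5.69 (SE 0.902, adjusted p = 0.00192) for FOS, the second resting on 34 counts in all at 50 °C.

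JUN, the partner of FOS in AP-1, averaged 171 ± 24.8 CPM at 50 °C and 588 ± 150 CPM at 46 °C, a log2 fold change of -1.79 (SE 0.159, adjusted p = 2.33e-09). JUNB averaged 55.6 ± 10.5 CPM at 50 °C and 118 ± 22.9 CPM at 46 °C (adjusted p = 2.59e-05). FOSB averaged 1.53 ± 1.09 CPM at 50 °C and 37.7 ± 11.5 CPM at 46 °C (adjusted p = 2.59e-05). In the AP-1 and ATF list 4 of 12 fell and 1 rose (all tested genes: 1.42% and 1.39%), with a median of -0.5. The 1 that rose was MAFG, a small MAF protein, at 153 CPM at 50 °C and 106 CPM at 46 °C. MAFG was named after its value was seen, kept its call only without 50 °C replicate 4 or 46 °C replicate 1 (adjusted p up to 0.118 in the other 6 omissions), and had an adjusted p of 0.234 with an offset for GC content. ATF3, a stress-induced member, had 2.24 to 19.9 CPM at 50 °C and 7.84 to 26 CPM at 46 °C and did not pass (adjusted p = 0.376).

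Of 27 genes in the EGR, IER, KLF and DUSP list 5 fell, 0 rose and 22 did not pass, with a median of -0.32. Of all tested genes 1.42% fell and 1.39% rose, and with library totals 8 of the list fell. Beside EGR1 the 5 were DUSP1, the MAP kinase phosphatase, KLF10, IER2 and MCL1, the short-lived BCL2 family survival protein. DUSP1 averaged 4.51 ± 3.66 CPM at 50 °C and 27.5 ± 13.1 CPM at 46 °C (log2 fold change -2.71, adjusted p = 0.000114). MCL1 averaged 197 ± 36.1 CPM at 50 °C and 289 ± 31.4 CPM at 46 °C (log2 fold change -0.56, adjusted p = 0.000825). GADD45B, a stress adaptor of MAP kinase signalling, had 45.5, 44.2, 51.8 and 45.5 CPM at 50 °C, against 185, 269, 183 and 214 CPM at 46 °C, a log2 fold change of -2.19 (adjusted p = 1.98e-16). PPP1R15A (GADD34), which directs dephosphorylation of eIF2 alpha, averaged 166 ± 14.3 CPM at 50 °C and 277 ± 21.6 CPM at 46 °C (adjusted p = 3.73e-05). Against nanoparticles alone GADD45B and PPP1R15A were called at 46 °C (adjusted p = 1.05e-20 and 9.02e-10) and not at 50 °C (adjusted p = 0.113 and 0.127).

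Members of the ID family, which block basic helix-loop-helix factors and respond to BMP signals, moved in opposite directions. ID2 had 6.31, 7.69, 13.1 and 11.5 CPM at 50 °C, against 50.3, 84.1, 36 and 79.7 CPM at 46 °C, a log2 fold change of -2.72 (adjusted p = 3.36e-08). ID1 had 83.6 to 124 CPM at 50 °C, against 38.1 to 65.9 CPM at 46 °C, a log2 fold change of 1.01 (adjusted p = 4.57e-06). ID3 had 42.3 to 59.8 CPM at 50 °C, against 12.5 to 28 CPM at 46 °C, a log2 fold change of 1.38 (adjusted p = 5.36e-06). None of the 3 overlapped between the groups. With nanoparticles alone they averaged 10.2 CPM (ID2), 145 CPM (ID1) and 66.6 CPM (ID3), so that 46 °C was above them for ID2 and below them for ID1 and ID3, each called (adjusted p = 6.49e-08, 3.45e-12 and 1.51e-08). At 50 °C they averaged 9.65 CPM (ID2), 100 CPM (ID1) and 53.4 CPM (ID3). In the BMP and TGF-beta list 2 members were lower at 50 °C than with nanoparticles alone and 0 higher. Within replicates 3 and 4 alone 0 of 12 members of that list rose from 46 to 50 °C and 1 fell, so ID1 and ID3 were not called there.

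Most mRNAs of the mitochondrial genome were higher at 50 °C. MT-CO3, a core subunit of cytochrome c oxidase, had 16900, 16400, 23900 and 21500 CPM at 50 °C, against 2700, 3490, 2710 and 3740 CPM at 46 °C. MT-ATP8, a subunit of ATP synthase, had 7280 to 11600 CPM at 50 °C, against 1120 to 1650 CPM at 46 °C. No library of one group reached the other, and the log2 fold changes were 2.63 (SE 0.142, adjusted p = 1.6e-08) for MT-CO3 and 2.79 (SE 0.164, adjusted p = 4.63e-08) for MT-ATP8.

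Of the 13 mitochondrially encoded mRNAs 12 rose and 0 fell (all tested genes: 1.39% and 1.42%), with a median of 1.9. The values of all 13 were without overlap, against 3.7% of all tested genes in the higher direction. Within replicates 1 and 2 alone 13 rose and within replicates 3 and 4 alone 7 rose, with a median of 1.9 in both. The called log2 fold changes ran from 1.51 for MT-ND4, a subunit of complex I, to the 2.79 of MT-ATP8. The exception was MT-ND6, the only mRNA of the other strand, at 116 ± 24.5 CPM at 50 °C and 50.9 ± 10 CPM at 46 °C (log2 fold change 1.18, 95% interval 0.343 to 2.02, adjusted p = 0.162). MT-ATP8 overlaps MT-ATP6, which overlaps MT-CO3, so the counting may divide reads between them. These mRNAs took 17 ± 1.95% of the counts at 50 °C, 4.94 ± 0.524% at 46 °C and 12 ± 0.63% with nanoparticles alone (SD, n = 4 each). Both temperatures therefore stood off from nanoparticles alone, with 10 of 13 lower at 46 °C and 8 of 13 higher at 50 °C. MT-CO2 shows it: it averaged 19200 ± 3250 CPM at 50 °C, 4090 ± 510 CPM at 46 °C and 13200 ± 750 CPM with nanoparticles alone, both heated groups called against the last (adjusted p = 0.0207 at 50 °C and 1.94e-07 at 46 °C).

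**Figure D3:**
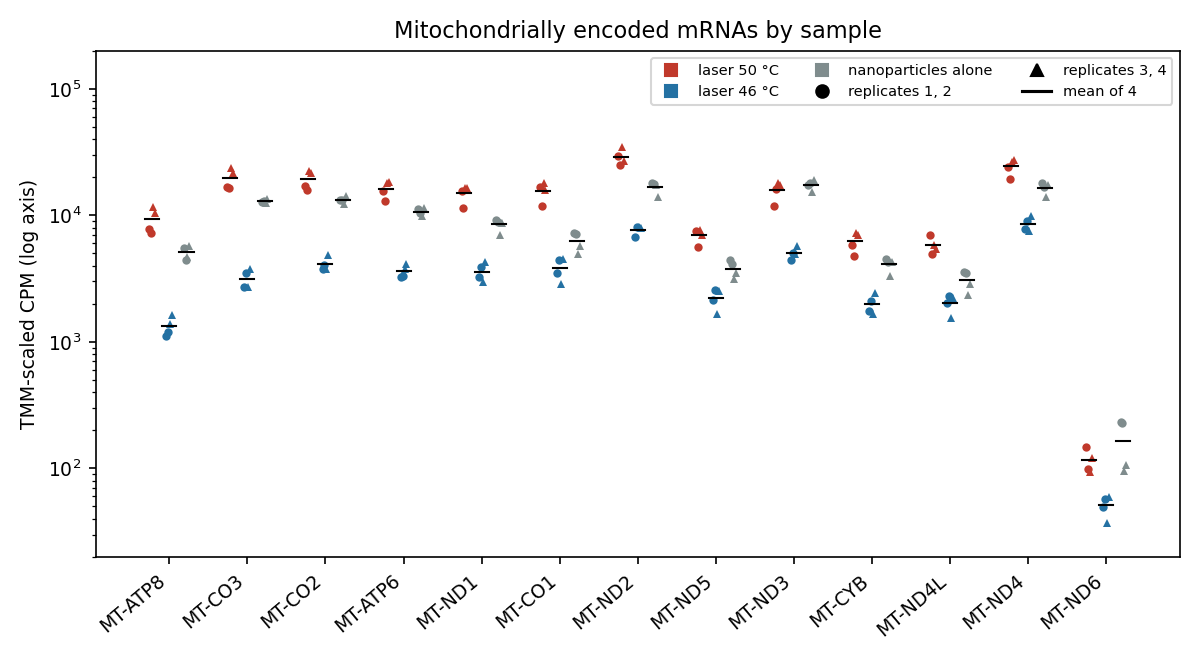
TMM-scaled CPM (log axis) of the 13 mitochondrially encoded mRNAs in each library of laser 50 °C, laser 46 °C and nanoparticles alone, ordered by log2 fold change, with a bar at each mean of 4 and markers by replicate pair. For MT-CO3 the 50 °C libraries lie at 16400 to 23900 CPM and the 46 °C libraries at 2700 to 3740 CPM.

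Most nuclear genes for subunits of the same complexes did not pass, but more of them fell than rose. Over all tested genes 1.42% fell and 1.39% rose. The list of nuclear-encoded oxidative phosphorylation subunits does not hold them all, and NDUFB6, NDUFB3 and ATP5MPL, left out of it, were also called lower. Of its 63 members 10 fell, 2 rose and 51 did not pass, with a median of -0.16. The log2 fold change was negative for 45 of them and positive for 18. With scaling to library totals 25 fell and 2 rose, and without the pair term 6 fell and 2 rose. ATP5MG, a small subunit of ATP synthase, averaged 869 ± 104 CPM at 50 °C and 1260 ± 221 CPM at 46 °C (log2 fold change -0.53, adjusted p = 1.59e-05). UQCRQ, a small subunit of complex III, averaged 643 ± 48.6 CPM at 50 °C and 874 ± 96.5 CPM at 46 °C (log2 fold change -0.44, adjusted p = 0.0011). The members that rose were NDUFV1 and NDUFS8, catalytic-side subunits of complex I, at 122 and 129 CPM at 50 °C and 77.3 and 82.6 CPM at 46 °C. The call of NDUFV1 was lost without 46 °C replicate 2 (adjusted p = 0.0754) and that of NDUFS8 without 50 °C replicate 3 (adjusted p = 0.0606).

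In the list of small structured RNAs and genes spanning them 6 of 8 rose and 0 fell, with a median of 1.6. Those called were CSKMT, ZNF277, TERC, MTRNR2L1, MTRNR2L10 and MTRNR2L12. Despite its name the list also held nuclear copies of the mitochondrial ribosomal RNA, among them the MTRNR2L genes called. Members of this list were chosen with earlier results of these data known, so the count is a description and not support. CSKMT, a methyltransferase gene whose locus holds the small nucleolar RNA SNORA57 on the same strand, had 181, 157, 202 and 164 CPM at 50 °C, against 17.3, 19.7, 20 and 13 CPM at 46 °C. SNHG12, a noncoding host of several small nucleolar RNAs, had 259, 387, 400 and 352 CPM at 50 °C, against 29.5, 55.8, 19.2 and 23.9 CPM at 46 °C. SNHG10, which spans the Cajal body RNA SCARNA13, had 52.6 to 82.8 CPM at 50 °C, against 7.05 to 19.9 CPM at 46 °C. The groups were without overlap for all 3, and the log2 fold changes were 3.32 (adjusted p = 5.26e-18), 3.42 (adjusted p = 1.66e-05) and 2.44 (adjusted p = 2.54e-06). The counts do not say whether they came from the host mRNA or from the small RNA within it.

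A small RNA annotated on the same strand lay within 28 of 169 higher genes (16.6%), 10 of 171 annotated lower genes (5.85%) and 7.96% of all annotated tested genes. Any annotated entry of such a class counted, such as RNU6-759P in CPNE1 and RF00024 in TERC. These shares are therefore not shares of genes that host working small RNAs. Others of the 28 were EIF4A2, an RNA helicase of translation initiation, with 450 to 685 CPM at 50 °C and 221 to 283 CPM at 46 °C (log2 fold change 1.20, adjusted p = 2.57e-13), and TERC. TERC is itself the RNA of telomerase rather than a host, and had 55.7 CPM at 50 °C and 18.7 CPM at 46 °C (adjusted p = 0.00387). In the fixed list of snoRNA hosts 5 of 23 rose and 0 fell (all tested genes: 1.39% and 1.42%), with a median of 0.2. Without the pair term 2 rose, and with library totals 2 rose and 3 fell. MTRNR2L12, a nuclear pseudogene-like copy of the mitochondrial ribosomal RNA already counted above, averaged 5780 ± 854 CPM at 50 °C and 1800 ± 98.9 CPM at 46 °C. Its reads cannot be told apart from those of the mitochondrial copy. RMRP, the RNA of RNase MRP, had 54.1 to 87.3 CPM at 50 °C and 52.5 to 61.8 CPM at 46 °C and did not pass (adjusted p = 0.954), with 1.41 ± 1.86 CPM for nanoparticles alone.

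Beside the 6 of 8 members of the small structured RNA list given above, the other lists kept as signs of RNA quality held 2 calls each. Over all tested genes 1.39% were called higher and 1.42% lower. Of 16 tested replication-dependent histone genes, whose mRNAs normally lack a poly(A) tail, 2 rose and 0 fell, with a median of 1.3. The log2 fold change was positive for 15 of the 16. For 8 the libraries did not overlap in the higher direction, against 3.7% of all tested genes. Against nanoparticles alone 5 histone genes were higher at 50 °C and 0 at 46 °C. The 33 listed genes summed to 1140 to 1540 CPM at 50 °C and 742 to 1180 CPM at 46 °C. HIST1H1E, a linker histone, had 66.5, 62.8, 61.4 and 63.1 CPM at 50 °C, against 29.5, 28.6, 27.8 and 15 CPM at 46 °C (log2 fold change 1.36, adjusted p = 0.000397). HIST1H2AG, a core histone, averaged 29.2 ± 7.52 CPM at 50 °C and 6.28 ± 5.01 CPM at 46 °C (adjusted p = 0.00657), but was not called without 50 °C replicate 4 or 46 °C replicate 1 (adjusted p = 0.0505 and 0.055). Of 12 nuclear long noncoding RNAs 0 rose and 2 fell, KCNQ1OT1 and NORAD, with a median of 0.069. NORAD averaged 99.4 CPM at 50 °C and 139 CPM at 46 °C and lost its call without 50 °C replicate 1 or 4 or 46 °C replicate 1 or 2 (adjusted p up to 0.108). MALAT1 and NEAT1 did not pass between the temperatures (adjusted p = 0.746 and 0.668). The part of RNA quality in the results was not tested.

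The called genes also differed in base composition. The longest annotated transcript of nuclear genes had a median GC content of 55.1% for higher genes, 43.7% for lower genes and 47.9% for all tested genes. Its median length was 3555 bases for higher, 2455 bases for lower and 3598 bases for all tested genes. Across 8160 genes with a mean of at least 10 CPM, GC content and log2 fold change correlated at a Spearman rho of 0.36, given as a description since genes share libraries and are not independent. With an offset for GC content, chosen after seeing the data, 101 genes were higher and 138 lower, 87 and 99 of them shared with the calls above. The chaperone, early-response and mitochondrial genes given above with an adjusted p under 0.0001 kept their calls under that offset.

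NFKBIA and NFKBIZ, genes of the I kappa B family of NF-kB regulators, were higher at 50 °C. NFKBIA, the inhibitor I kappa B alpha that NF-kB itself induces, had 154, 132, 147 and 138 CPM at 50 °C, against 74, 41.5, 80.7 and 78.4 CPM at 46 °C. Every library at 50 °C was above every library at 46 °C, and the log2 fold change was 1.06 (95% interval 0.756 to 1.36, adjusted p = 3.91e-07). With nanoparticles alone NFKBIA averaged 131 ± 10.8 CPM, and 46 °C was lower than that (log2 fold change -0.94, adjusted p = 8.36e-06) while 50 °C did not pass (0.12, adjusted p = 0.8). NFKBIZ, an atypical member of the I kappa B family, had 18.8 to 45.2 CPM at 50 °C, against 4.32 to 18.3 CPM at 46 °C. Its log2 fold change was 1.93 (adjusted p = 0.00065), and it averaged 10.4 ± 6.96 CPM with nanoparticles alone.

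Of 18 NF-kB factors and feedback inhibitors 4 rose and 0 fell (all tested genes: 1.39% and 1.42%), although the median was -0.0019. With the GC offset 2 rose, and with library totals 2 rose and 1 fell. The remaining pair of the 4 were TNIP1 and IRF1. TNIP1 averaged 222 ± 33.3 CPM at 50 °C and 153 ± 15.9 CPM at 46 °C, and IRF1 76.2 and 45.2 CPM. TNIP1 lost its call without 50 °C replicate 1 or 46 °C replicate 2 (adjusted p = 0.0517 and 0.0772), and IRF1 without 50 °C replicate 1 or 4 or 46 °C replicate 2, 3 or 4 (adjusted p up to 0.141). CSF3, a cytokine outside the list used here and named after its value was seen, was called higher at 50 °C. It averaged 19.3 CPM at 50 °C and 6.84 CPM at 46 °C (log2 fold change 1.68, adjusted p = 0.0263). Of 17 tested members of the cytokine list 2 fell and 0 rose. Those 2 were IL11 and CXCL8, at 168 and 134 CPM at 50 °C and 217 and 184 CPM at 46 °C. Neither passed without the pair term (adjusted p = 0.91 and 0.752), and leaving out 1 library ended the call of IL11 in 6 of 8 cases (each but 50 °C replicate 2 and 46 °C replicate 1) and that of CXCL8 in 5 (50 °C replicates 1, 3 and 4 and 46 °C replicates 2 and 4), with an adjusted p up to 0.127 and 0.223.

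CCN1 (CYR61), a secreted matrix protein and target of YAP and serum response factor, had 1010, 841, 1150 and 1150 CPM at 50 °C, against 385, 424, 456 and 426 CPM at 46 °C. It was 2.44-fold higher at 50 °C without overlap (log2 fold change 1.29, SE 0.0925, adjusted p = 6.73e-20). With nanoparticles alone it averaged 572 ± 45.8 CPM, between the temperatures, and both differed from that (adjusted p = 3.06e-11 at 50 °C and 0.00133 at 46 °C). Of 25 YAP and SRF targets 7 rose and 3 fell (all tested genes: 1.39% and 1.42%), with a median of 0.15. But with the GC offset 2 rose and 4 fell, and with library totals 1 rose and 5 fell, with a median of -0.024. Library totals lowered all genes by about the same amount as this list, and CCN1 itself rose under each of these settings. EGR1 and FOS, which also carry serum response elements, fell as given above.

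The next 3 lists stand beside 1.39% of all tested genes called higher and 1.42% called lower. Of 83 cytosolic ribosomal protein genes 10 rose and 4 fell, with a median of -0.0075. Without the pair term 3 rose and 1 fell, and with library totals 2 rose and 32 fell, with a median of -0.18. Of 29 hypoxia and glycolysis genes 5 rose and 0 fell, with a median of 0.16; with the GC offset 2 rose, and with library totals 2 rose and 4 fell, with a median of -0.014. GAPDH averaged 1870 ± 87.2 CPM at 50 °C and 1360 ± 163 CPM at 46 °C (log2 fold change 0.46, adjusted p = 3.23e-05). Of 31 splicing factors and RNA-binding proteins 3 fell and 0 rose, with a median of -0.18 (1 fell without the pair term and 15 with library totals), among them HNRNPA2B1 at 327 ± 40.4 CPM at 50 °C and 487 ± 67.7 CPM at 46 °C (adjusted p = 6.26e-05).

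Several lists had no call in either direction. These were 12 checkpoint ligands, 10 factors of the MAX network, 23 interferon-stimulated genes, 20 cholesterol synthesis genes, 7 metallothioneins and 9 CLK kinases and O-GlcNAc enzymes. At the 1.39% and 1.42% called among all genes, an absence of calls in lists of this size is near the background. CD274 (PD-L1), the checkpoint ligand of PD-1, averaged 21.7 ± 9.1 CPM at 50 °C and 16.5 ± 5.3 CPM at 46 °C, a log2 fold change of 0.31 with a 95% interval of -0.338 to 0.968 (adjusted p = 0.78). CD47, the signal that blocks phagocytosis, averaged 52.6 ± 8.56 CPM at 50 °C and 60.8 ± 10.2 CPM at 46 °C, a log2 fold change of -0.21 with an interval of -0.604 to 0.189 (adjusted p = 0.753). HMOX1, the heme-degrading oxidative stress enzyme, averaged 12.3 ± 4.09 CPM at 50 °C and 11.1 ± 5.78 CPM at 46 °C (adjusted p = 0.934).

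**Figure D4:**
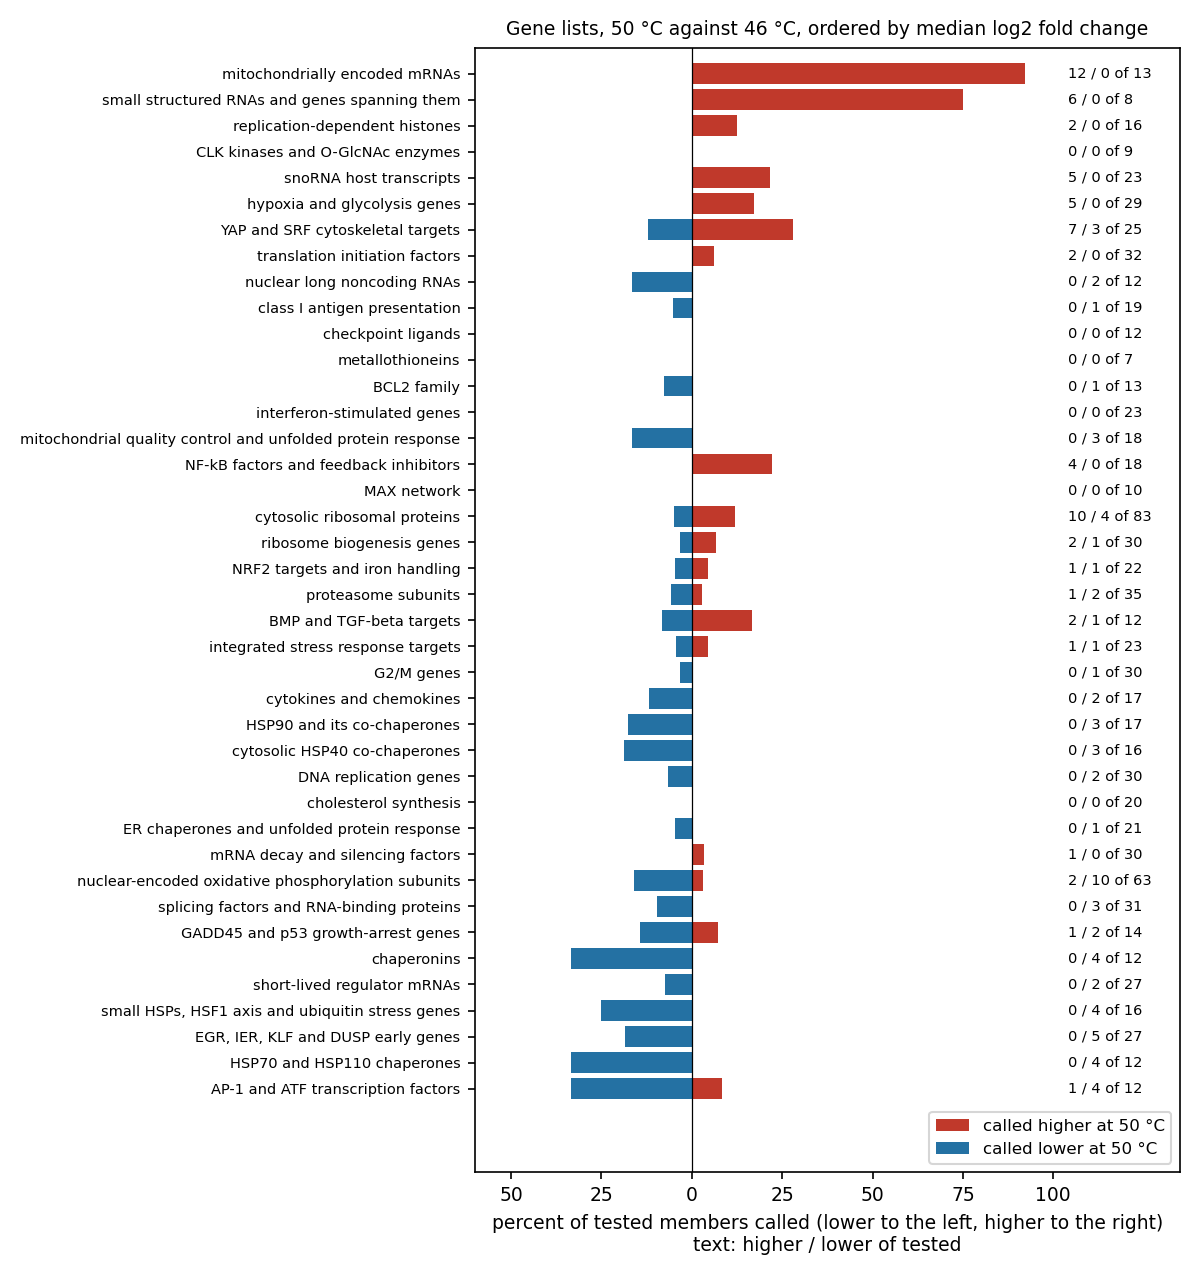
Bars give the percent of tested members of each list called higher (to the right) and lower (to the left) at 50 °C than at 46 °C, with the lists in order of median log2 fold change and the counts beside them. Mitochondrially encoded mRNAs (12 of 13 higher) stand at the top, and AP-1 factors (4 of 12 lower) and HSP70 chaperones (4 of 12 lower) at the bottom.

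**Figure D5:**
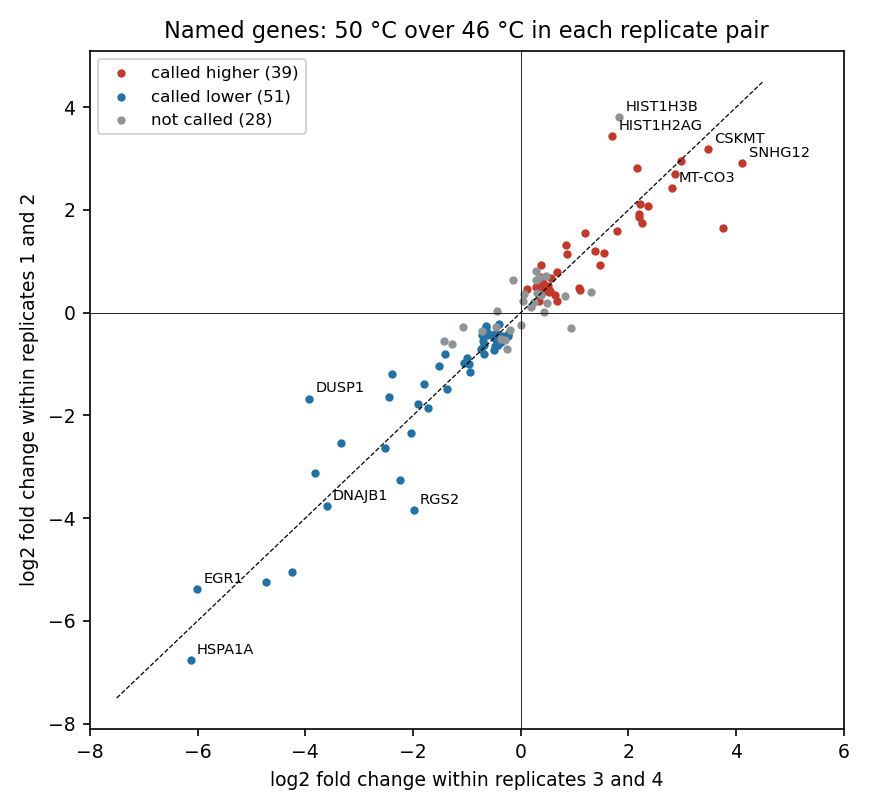
Log2 fold changes of 50 °C over 46 °C for the named genes with more than 3 counts in each pair, estimated within replicates 3 and 4 (across) and within replicates 1 and 2 (up), with a dashed line of equal values. All points of called genes lie in the upper right or lower left of the plot; HSPA6 and FOS are not drawn, because they had 0 or 1 counts in a pair at 50 °C.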

How the data were processed

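RNA was sequenced from the 3′ ends of mRNAs (QuantSeq FWD kit, per the labels' protocols) in 20 samples, of which 8 carry this comparison. The deposited values are estimated counts per gene made by the authors; the submitters' processing notes name STAR, Salmon and GRCh38. No source used here gives their versions, the annotation, whether molecular identifiers were used or how strand was handled, so reads of overlapping or antisense genes cannot be told apart (DNAJB1 lies opposite TECR, CSKMT opposite LBHD1, FOSB opposite ERCC1). Counts were rounded, since 2.02% to 2.55% of the values of a library were not whole in these 8.

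Genes were tested with edgeR 4.0.16 (R 4.3.3), robust quasi-likelihood F test, TMM scaling, the default filter (count of 10, total of 15), which kept 12149 of 36601 genes, and Benjamini-Hochberg adjustment over them. The fit used all 20 samples, with 5 group means and a term for replicates 1 and 2 against 3 and 4. That division was found in earlier results of these same data, and no label names it. Standard errors are the log2 fold change over the root of F. Every adjusted p in the text is from this test unless another is named. CPM values are TMM-scaled, and errors are SD over 4 samples. PCR copies are not independent molecules, so depth bounds counting error only. The interaction of step and pair was tested in 10 cell means.

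Named genes are, by size, the first 12 rises and 12 falls that were called, averaged at least 10 CPM and did not overlap, the 3 smallest p of each list with a call, and fixed genes. Genes named outside this rule, to complete a list's calls or as RNA and marker checks (HSPB1, MAFG, IER2, MT-ND6, NDUFV1, NDUFS8, TERC and IRF1 among them), were picked once their values were known. The members, the 46 lists and the tests were chosen with earlier results of these data known. Lists are given by counts and medians, with no set test. Positions, transcript length and GC content are from GENCODE v29 (12113 tested genes matched), and the authors may have used another annotation. AC010624.5 had no entry there. Alternatives were no pair term, a replicate block, the 8 samples alone, each pair alone, DESeq2 1.42.0, limma-voom (limma 3.58.1), RLE, library totals, scaling on nuclear genes, other filters, each library left out, and, added after seeing the data, a loess offset for GC content per library. The test was checked on simulated data.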

Additional observations from a re-analysis of the deposited data

Results flagged for a closer look

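In 240 groups of 4 libraries (120 named genes at 50 °C and at 46 °C), 13 held a library set off from the other 3 by more than Dixon's 95% limit, and chance alone gives about 1 in 20. At 50 °C the library lay below the others for ATP5MG (replicate 3, 713 CPM, others 911 to 934), HES1 (replicate 3, 68.2 CPM, others 109 to 111), HSP90AA1 (replicate 3, 3750 CPM, others 4330 to 4420), HLA-E (replicate 1, 167 CPM, others 196 to 200) and HMOX1 (replicate 2, 6.21 CPM, others 14.1 to 14.7). It lay above them for CAD (replicate 4, 80.8 CPM, others 52.9 to 57.6), HIST1H2AG (replicate 4, 40.4 CPM, others 24.5 to 26.7), HNRNPA2B1 (replicate 2, 386 CPM, others 298 to 312) and RRAD (replicate 2, 18.1 CPM, others 7.3 to 8.42).

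At 46 °C the library lay above the others for FOS (replicate 4, 151 CPM, others 71.4 to 81.1) and RMRP (replicate 2, 61.8 CPM, others 52.5 to 54.1), and below them for HIST1H1E (replicate 4, 15 CPM, others 27.8 to 29.5) and NFKBIA (replicate 2, 41.5 CPM, others 74 to 80.7). For FOS, HSP90AA1, NFKBIA and HIST1H1E the values of the groups stayed apart with that library included. CAD was not called without 50 °C replicate 4 (adjusted p = 0.176) or 46 °C replicate 2 or 3 (adjusted p = 0.0576 and 0.0792), and HIST1H2AG not without it either (adjusted p = 0.0505).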

How the results depend on the processing

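Higher and lower calls numbered 169 and 172. They were 71 and 74 without the pair term, 126 and 110 within replicates 1 and 2, 40 and 35 within replicates 3 and 4, 225 and 263 with DESeq2, 68 and 725 with library totals, and 101 and 138 with the GC offset. Leaving out 1 library gave 105 to 154 higher and 118 to 150 lower, and 65 higher and 67 lower genes kept the call in all 8 omissions. The other settings (8 samples alone, limma-voom, RLE, scaling on nuclear genes, other filters) stayed within 1.5 times of both counts. Within replicates 3 and 4 alone, calls were fewer by over 1.5 times in several lists: 1 of 16 HSP40 genes, 2 of 12 chaperonins and 1 of 63 nuclear oxidative phosphorylation genes fell, and 1 of 18 NF-kB genes, 1 of 25 YAP and SRF targets and 2 of 83 ribosomal protein genes rose. With a replicate block, which takes the number 1 to 4 as a pairing, 174 were higher and 179 lower. The numbers did not pair the samples: deviations of libraries with the same number correlated at 0.041 to 0.053, those of the same pair with another number at 0.035 to 0.07, and 5 of 8 libraries correlated best with their own number. The test of a difference between pairs called 0 genes, 1 with the 8 samples alone, 2 without the filter and 0 to 4 with a library left out (4 without 46 °C replicate 3, 1 without 46 °C replicate 4). Of 120 named genes 92 were called. No called direction reversed under any setting run, 69 kept the call in all 8 omissions and 30 under every setting. Within replicates 3 and 4 alone 47 lost the call, and within replicates 1 and 2 alone 29 did. Without the pair term 28 lost it, with the GC offset 16 and with library totals 11. Depth limits low genes: HSPA6 and FOS had 28 and 34 counts in all at 50 °C.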

Other observations

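Among called genes in no list, chosen after their values were seen, ZC3H12A, the RNase regnase-1 that trims inflammatory mRNAs, averaged 75.8 CPM at 50 °C and 23.5 CPM at 46 °C (log2 fold change 1.69, adjusted p = 4.63e-08) and kept its call in all 8 omissions. ITGA5, a subunit of the fibronectin receptor, averaged 50.5 CPM at 50 °C and 22.0 CPM at 46 °C (log2 fold change 1.17, adjusted p = 0.000771), and DKK1, a secreted Wnt antagonist, was also higher (log2 fold change 0.93). The spliceosome core proteins SNRPG and SNRPE were lower at 50 °C, with log2 fold changes of -0.81 and -0.58, and each kept its call in all 8 omissions. RGS2, a regulator of G protein signalling, had 5, 2.23, 13.1 and 7.3 CPM at 50 °C, against 47.1, 57, 30.6 and 50.5 CPM at 46 °C (adjusted p = 0.00242).

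AC010624.5, an uncharacterized locus, had 117, 32.3, 57.4 and 53.6 CPM at 50 °C, against 556, 742, 845 and 712 CPM at 46 °C, and averaged 6.3 ± 4.06 CPM with nanoparticles alone. It was higher than nanoparticles alone at both temperatures (adjusted p = 0.00354 at 50 °C and 3.68e-06 at 46 °C). KCNQ1OT1, a nuclear antisense RNA of an imprinted locus, averaged 15.3 ± 4.27 CPM at 50 °C and 62.1 ± 21 CPM at 46 °C (adjusted p = 9.74e-07).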
